A study of Mus musculus with 9 samples.

Results

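Solute carriers are the membrane proteins that move ions, metals, sugars, amino acids, nucleotides and drugs across the plasma membrane and the membranes of organelles, and they carry the gene symbol Slc followed by a family number, a letter and a member number. They were described here in mouse lung tumour cells grown as spheroids. The table of values holds 12339 genes, of which 219 have a symbol of that form. Slc2a1, Slc16a3 and Slc7a11 were left out by name, and 39 of the remaining 216 stayed below a mean of 5 CPM in all 3 groups, which left 177 genes. CPM are the reads of a gene scaled to the size of its library. The genes were thus selected on their group means. Of the 177, 155 reached the minimum in 3 groups, 10 in 2 groups and 12 in 1 group. A gene that passed through 1 or 2 groups had to be lower in the groups below the minimum. The genes just outside were Slc7a7, Slc38a6 and Slc36a1, with highest group means of 4.22, 4.47 and 4.81 CPM, and those just inside included Slc12a8 and Slc25a53, with 5.48 and 5.75 CPM. The symbol form also takes in 4 genes that encode no transporter: Slc9a3r1 and Slc9a3r2, scaffold proteins that bind exchangers, and Slc4a1ap and Slc7a6os, named for a binding partner and a neighbouring gene.

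The tumour cells were KP-GFP cells of the C57BL/6 strain, in every group, and the labels name no difference of genotype between groups. Each spheroid was started from 2500 tumour cells, either alone, with 5000 TRMs (alveolar macrophages, the macrophages resident in lung tissue) or with 5000 bone-marrow monocytes, and was kept for 7 days. Pools of 32 spheroids of a condition were taken apart enzymatically in 20 min at 37 °C, and GFP-positive cells were sorted, 20000 to 170000 per sample, so the RNA is that of sorted GFP-positive cells and not of the whole spheroid. cDNA was made from 1 ng of RNA. There were 3 libraries in each group, and the study asked what each kind of macrophage does to the cancer cells directly. The labels do not say that libraries of a group came from separate cultures or days, so the p-values measure the spread between these samples.

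Cells cannot make or discard most of their ions, metals and nutrients without carriers, and a carrier's direction is set by the gradient it is coupled to: sodium-coupled carriers concentrate their cargo, exchangers swap one ion or metabolite for another, and facilitative carriers let cargo run down its own gradient. Carriers of the Slc12, Slc4 and Slc9 families set cell volume, chloride and pH. Slc39 and Slc30 proteins move zinc into and out of the cytosol, Slc25 proteins line the inner mitochondrial membrane, and Slc35 proteins feed nucleotide sugars to the Golgi. In lung tumours the carriers of glucose, lactate and glutamine have drawn most attention, since tumour cells consume and export these in bulk.

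Recovered reads numbered 16001895 to 32771448 per library. In a principal component analysis of all genes, the spheroids grown alone lay at 43.6 to 81.4 on the first axis (35.9% of the variance) and the co-cultures at -52.1 to 13.3. Monocyte replicate 3 lay apart on the second axis (20.9%), at 75.3, where the other libraries lay between -50.3 and 34. The tumour label was checked against epithelial genes: Krt8, a keratin of simple epithelia, measured 4649.6 ± 459.7 CPM alone, 4816 ± 514 with TRMs and 4054 ± 752 with monocytes (mean ± SD, n = 3), and Epcam, an epithelial adhesion molecule, 566 ± 85.1, 635 ± 166 and 386 ± 131 CPM. Cdh1 (E-cadherin) fell with monocytes, from 1649.8 ± 97.6 to 869 ± 258 CPM (log2 -0.96, SE 0.18, limma adjusted p = 0.00173). Of 7 tumour-cell markers, which include these 3, none was called with TRMs and 2 were called lower with monocytes, or 1 without TRM replicate 2, TRM replicate 3, alone replicate 1, alone replicate 2, alone replicate 3, monocyte replicate 1 or monocyte replicate 2. Their median log2 fold change was 0.05 with TRMs and -0.26 with monocytes, and their summed level was 13552, 12388 and 13883 CPM alone, 15065, 13398 and 12519.7 CPM with TRMs and 8886, 10204 and 13514 CPM with monocytes, lowest in monocyte replicates 1 and 2; the part of this in the changes of single carriers was not tested. Of 30 myeloid marker genes 19 were in the table, and their summed level was 249.6, 172 and 261 CPM alone, 337, 181 and 244 CPM with TRMs and 198, 199 and 260.3 CPM with monocytes, with overlapping ranges. With TRMs 2 of the 19 rose and none fell, and with monocytes 2 rose and 3 fell. The 3 falls were 1 without alone replicate 1, alone replicate 2, alone replicate 3 or monocyte replicate 1. Of all genes tested, 10.2% rose and 8.15% fell with TRMs, and 14.7% rose and 12.7% fell with monocytes. Ptprc, the pan-leukocyte marker, stood at 0.916 to 3.46 CPM alone, 0.501 to 4.47 with TRMs and 0.021 to 0.565 with monocytes, and Itgam, an integrin of myeloid cells, at 0.604 ± 0.396, 0.156 ± 0.0591 and 0.542 ± 0.722 CPM. Mrc1, the mannose receptor, and F13a1, a coagulation factor made by macrophages, both rose: Mrc1 from 5.12 ± 0.211 to 32.9 ± 9.27 and 39.2 ± 7.49 CPM, and F13a1 from 0.96 ± 0.303 to 13.4 ± 3.82 and 13.4 ± 5.38 CPM. The part of carried-over myeloid RNA in the changes of single carriers was not tested. As these are pools of sorted cells, a smaller fraction of cells expressing a gene and less RNA per cell cannot be told apart.

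No solute carrier was at 0 reads in any library; the lowest value was 4 reads. The median carrier had a mean of 38.3 CPM over the 9 libraries, against 32.1 CPM for the median gene of the table, and the carriers summed to between 12727 and 15542 CPM per library. Levels of different genes were compared as CPM per kb of exon. The order of the levels differed between the groups (mean ± SD, n = 3). In spheroids grown alone the highest were the glutamine carrier Slc38a2 (SNAT2) at 138 ± 54.6 CPM per kb, the chloride importer Slc12a2 (NKCC1) at 127 ± 9.84 CPM per kb and Slc3a2, the CD98 heavy chain that anchors amino acid exchangers, at 102 ± 53.5 CPM per kb. Next came Slc25a24, an ATP-Mg/phosphate carrier, at 98 ± 9.62 CPM per kb and the zinc importer Slc39a4 (ZIP4) at 94.5 ± 16.3 CPM per kb. With TRMs the highest was Slc25a4, the mitochondrial ADP/ATP exchanger ANT1, at 115 ± 9.59 CPM per kb, against 80.6 ± 7.77 CPM per kb alone, followed by Slc25a24 at 104 ± 5.7 CPM per kb. With monocytes Slc25a4 again stood highest, at 153 ± 5.93 CPM per kb, followed by its close relative Slc25a5 (ANT2) at 116 ± 17.1 CPM per kb and Slc25a39, which brings glutathione into mitochondria, at 113 ± 16.6 CPM per kb. Apart from Slc25a4 and Slc25a5 with monocytes, the neighbours named in each order differed by less than the sum of their SDs.

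In tumour cells grown with TRMs, 17 carriers rose and 28 fell relative to spheroids grown alone, and 132 did not pass the test. Among carriers that reached the minimum in all 3 groups, the largest falls were those of the zinc and manganese importer Slc39a8 (5.21-fold) and the sulfate carrier Slc26a2 (3.51-fold). The largest rises were those of the potassium-chloride exporter Slc12a4 (3.05-fold), the sodium-proton exchanger Slc9a2 (2.87-fold) and the glucose-6-phosphate carrier Slc37a4 (2.52-fold). A carrier was called at a limma adjusted p under 0.05, with the adjustment over all 12326 genes tested. The carriers called higher were 9.60% of the 177, where 10.2% of all genes were called higher, and those called lower were 15.8%, where 8.15% of all genes were called lower (18.4% in either direction). The median log2 fold change was -0.09 for carriers and -0.00 for all genes. In all 9 fits that each left out 1 library, 8 of the 17 rises and 14 of the 28 falls were called again. The number of rises was 10 or fewer without TRM replicate 2 (8), TRM replicate 3 (10) or alone replicate 1 (9), and the number of falls was 18 or fewer without TRM replicate 2 (17), TRM replicate 3 (15), alone replicate 1 (18) or alone replicate 3 (18). Scaling by library totals in place of TMM, edgeR's trimmed mean of M-values, gave 14 rises and 39 falls. The rises were then 26.4% of the calls among carriers in place of 37.8%, and 43.5% of the calls among all genes in place of 55.6%. Of the 12 carriers that reached the minimum in 1 group, 5 were called lower and none higher, and of the 155 that reached it in all 3 groups, 21 were called lower (13.5%) and 15 higher (9.68%).

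With bone-marrow monocytes, 23 carriers rose, 37 fell and 117 did not pass the test. Among carriers that reached the minimum in all 3 groups, the largest falls were those of Slc39a8 (4.97-fold), Slc26a2 (3.08-fold) and the zinc exporter Slc30a1 (2.88-fold). The largest rises were those of Slc12a4 (3.25-fold) and the nucleoside carrier Slc29a1 (3.06-fold). Rises made up 13% of the carriers against 14.7% of all genes, and the falls were 20.9% against 12.7% (27.3% of all genes in either direction), with a median log2 fold change of -0.09 for carriers and -0.02 for all genes. In all 9 left-out fits 11 of the 23 rises and 21 of the 37 falls were called again. The rises numbered 15 without alone replicate 1 and 13 without monocyte replicate 1, and the falls numbered 24 without alone replicate 3. Of the 12 carriers at the minimum in 1 group, 6 were called lower and 1 higher, and of the 155 at the minimum in all 3, 29 were called lower (18.7%) and 19 higher (12.3%). Both comparisons use the same 3 libraries grown alone, so their calls are not independent, and a call in one and not in the other is no test of a difference between the co-cultures, which is given further on.

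**Figure D1:**
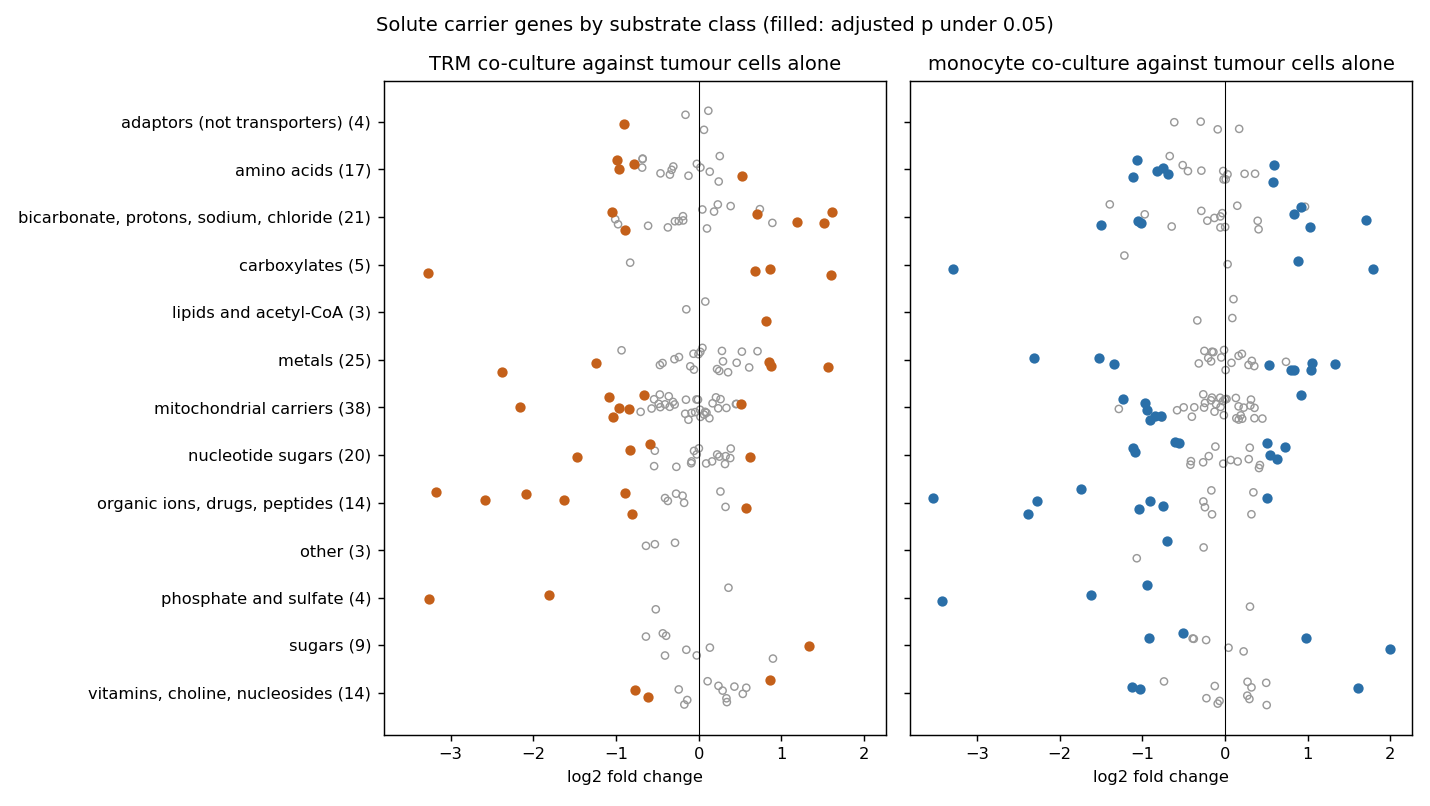
Log2 fold change of each carrier against spheroids grown alone, by substrate class, with TRMs in the left panel and with monocytes in the right panel. Each point is 1 gene and filled coloured points are genes called by limma at an adjusted p under 0.05; phosphate and sulfate carriers hold no call above 0, whereas the 4 called potassium, chloride, bicarbonate and proton carriers that rose with TRMs stand beside 2 that fell.

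Counts of each class are to be read beside the shares over all genes tested. Those were 10.2% higher and 8.15% lower with TRMs, and 14.7% and 12.7% with monocytes. The carriers of bicarbonate, protons, sodium and chloride numbered 21. With TRMs 4 rose and 2 fell, with monocytes 4 rose and 3 fell, and the median log2 fold changes were 0.04 and -0.05. Within the Slc12 family of cation-chloride cotransporters the members went in different directions. Slc12a2 (NKCC1), which brings sodium, potassium and chloride into the cell, measured 1441, 1265 and 1459.8 CPM alone, 825, 653 and 769 CPM with TRMs and 636, 689 and 682 CPM with monocytes. All 6 co-culture libraries lay below the 3 grown alone, a fall of 1.86-fold with TRMs (log2 -0.89, SE 0.14, limma adjusted p = 0.000589) and 2.07-fold with monocytes (log2 -1.05, SE 0.14, limma adjusted p = 0.000131). Slc12a4 (KCC1; ENSMUSG00000017765, chromosome 8, 105943590 to 105966097, GRCm38), which lets potassium and chloride out, measured 27.1, 47 and 35.8 CPM alone, 74.7, 146 and 119 CPM with TRMs and 150.2, 134 and 78 CPM with monocytes. It rose 3.05-fold with TRMs (log2 1.61, SE 0.28, limma adjusted p = 0.00168) and 3.25-fold with monocytes (log2 1.70, SE 0.28, limma adjusted p = 0.000778), and no co-culture library overlapped those grown alone. Slc12a7 (KCC4), which exports the same ions, was not called, at 351 ± 48.1 CPM alone, 272 ± 47 with TRMs and 337 ± 29.8 with monocytes.

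The acid-base carriers of the Slc4 and Slc9 families also split. Slc4a4 (NBCe1), which brings sodium and bicarbonate into the cell, measured 268, 254 and 299 CPM alone, 229, 206 and 237 CPM with TRMs and 136, 123 and 147 CPM with monocytes. It fell 2.02-fold with monocytes (log2 -1.02, SE 0.13, limma adjusted p = 0.000119), while with TRMs it was not called (log2 -0.29, SE 0.13, limma adjusted p = 0.145). Slc4a11, a proton and water carrier best known from the corneal endothelium, measured 102, 174 and 75.4 CPM alone, 251, 262 and 239 CPM with TRMs and 151, 131 and 154 CPM with monocytes. The 3 TRM libraries were its highest, a rise of 2.27-fold (log2 1.18, SE 0.23, limma adjusted p = 0.00287), and the monocyte libraries overlapped those grown alone (log2 0.40, SE 0.23, limma adjusted p = 0.22). Slc9a2 (NHE2), which exchanges internal protons for sodium, measured 8.32, 6.45 and 11.3 CPM alone, 21, 28.1 and 24.2 CPM with TRMs and 19.9, 16.8 and 12.5 CPM with monocytes. Its rise of 2.87-fold with TRMs (log2 1.52, SE 0.26, limma adjusted p = 0.00125) was called in every left-out fit; that of 1.9-fold with monocytes (log2 0.93, SE 0.26, limma adjusted p = 0.0163) was not called without alone replicate 2 (0.0571) or monocyte replicate 1 (0.062). Slc4a2 (AE2), which exchanges bicarbonate for chloride and shares 13.7% of its exon bases with other genes, measured 106, 119.6 and 120.4 CPM alone, 178, 235 and 158 CPM with TRMs and 247, 213 and 167 CPM with monocytes. It rose 1.79-fold with monocytes (log2 0.84, SE 0.17, limma adjusted p = 0.00316) and 1.63-fold with TRMs (log2 0.70, SE 0.17, limma adjusted p = 0.0125), the latter not called without TRM replicate 2 (0.0758) or alone replicate 1 (0.0543). Slc4a7 (NBCn1), another sodium bicarbonate carrier, stood at 51.9 ± 5.82 CPM alone, 57.6 ± 18.9 with TRMs and 58.3 ± 12.9 with monocytes, with no call. The fourth call among rises with monocytes was Slc4a8, a sodium-driven chloride-bicarbonate exchanger (log2 1.03, limma adjusted p = 0.0436), a call lost in 8 of the 9 left-out fits (adjusted p up to 0.17) and with scaling by library totals (0.0525), in limma-voom (0.0615), when fitted on the compared groups only (0.0774) and with the replicate block (0.051). Slc4a8 reached the minimum only in the co-cultures and so had to be higher there. Its difference is a description, although it is counted among the rises. The class count of 4 rises with monocytes was 2 without monocyte replicate 1.

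**Figure D2:**
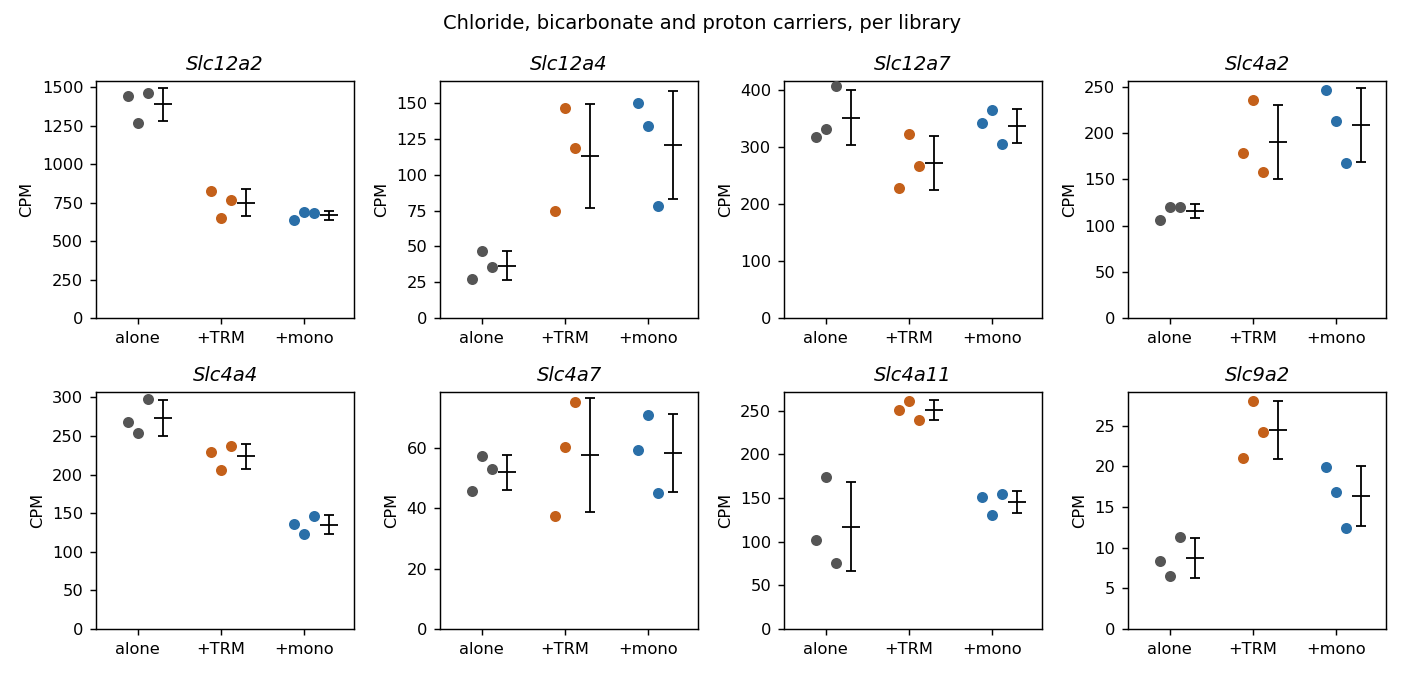
CPM of cation-chloride and acid-base carriers in each library (points) with the mean and SD of each group (bars, n = 3), for spheroids alone, with TRMs (+TRM) and with monocytes (+mono). Slc12a2 is lower and Slc12a4 higher in all 6 co-culture libraries, and Slc4a4 is lowest in the 3 monocyte libraries.

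Metal carriers numbered 25, with 3 rises and 2 falls with TRMs, 6 rises and 3 falls with monocytes, and medians of 0.05 and 0.08. The rises with TRMs were 1 without TRM replicate 2, TRM replicate 3 or alone replicate 1, and those with monocytes 3 without alone replicate 1 or monocyte replicate 1. Zinc importers of the Slc39 family went both ways. Slc39a8 (ZIP8; ENSMUSG00000053897, chromosome 3, 135825279 to 135888572, GRCm38), which takes up zinc and manganese, measured 108, 72.3 and 103 CPM alone, 22.9, 15.8 and 15.8 CPM with TRMs and 14.7, 16.4 and 27.5 CPM with monocytes. Every co-culture library lay far below those grown alone, a fall of 5.21-fold with TRMs (log2 -2.38, SE 0.25, limma adjusted p = 4.6e-05) and 4.97-fold with monocytes (log2 -2.31, SE 0.25, limma adjusted p = 4.27e-05). Slc39a14 (ZIP14), its nearest relative in cargo, measured 59.3, 91.3 and 79.6 CPM alone, 99.5, 181 and 139 CPM with TRMs and 174, 169.5 and 127 CPM with monocytes. It rose 2.05-fold with monocytes (log2 1.04, SE 0.22, limma adjusted p = 0.00355) and 1.8-fold with TRMs (log2 0.85, SE 0.22, limma adjusted p = 0.0164), where the call was lost without TRM replicate 2 (0.0939), TRM replicate 3 (0.0514) or alone replicate 1 (0.077). Slc39a13 (ZIP13), a zinc carrier of intracellular vesicles needed in connective tissue, measured 24.4, 34.1 and 25.6 CPM alone, 45, 57.7 and 51.2 CPM with TRMs and 71.9, 51.3 and 51.2 CPM with monocytes. Both co-cultures lay wholly above the spheroids grown alone, by 1.84-fold with TRMs (log2 0.88, SE 0.19, limma adjusted p = 0.00598) and 2.07-fold with monocytes (log2 1.05, SE 0.19, limma adjusted p = 0.00136). Slc39a1 (ZIP1), an importer of the plasma membrane, rose 1.79-fold with monocytes, at 12.4 to 14.5 CPM alone and 20.9 to 30.5 CPM with monocytes (log2 0.84, SE 0.21, limma adjusted p = 0.00914). The third rise with TRMs was Slc41a2, a magnesium carrier (log2 1.56, limma adjusted p = 0.022), a call lost without TRM replicate 2 (0.115), TRM replicate 3 (0.106) or alone replicate 1 (0.0784). With monocytes Slc41a2 was called too (log2 1.34, limma adjusted p = 0.0334), a call lost in 4 of the 9 left-out fits (adjusted p up to 0.116) and in limma-voom (0.0643). Slc41a2 reached the minimum only in the co-cultures and so had to be higher there. Its differences are a description, although they are counted among the rises. The zinc importers Slc39a6 (log2 0.53, limma adjusted p = 0.037), a call lost in 4 of the 9 left-out fits (adjusted p up to 0.139), and Slc39a10 (log2 0.80, limma adjusted p = 0.0241), a call lost without alone replicate 1 (0.0712), alone replicate 2 (0.0619) or monocyte replicate 1 (0.0933), were the remaining rises. The most abundant zinc importer per kb, Slc39a4, was not called and stood at 294 ± 50.8 CPM alone, 296 ± 27.8 with TRMs and 303 ± 133 with monocytes.

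The iron exporter fell in both co-cultures and a zinc exporter with monocytes. Slc40a1 (ferroportin), the only known exporter of iron from cells and also abundant in macrophages, measured 185, 145 and 185 CPM alone, 87.6, 58 and 74.3 CPM with TRMs and 56.5, 54.8 and 97.8 CPM with monocytes. It fell 2.36-fold with TRMs (log2 -1.24, SE 0.22, limma adjusted p = 0.00182) and 2.54-fold with monocytes (log2 -1.35, SE 0.22, limma adjusted p = 0.000704), and its co-culture ranges did not reach those grown alone. Slc30a1 (ZnT1), which exports zinc, measured 15.1, 26.2 and 17.2 CPM alone, 12, 10.5 and 7.8 CPM with TRMs and 3.49, 11.7 and 7.0 CPM with monocytes. It fell 2.88-fold with monocytes (log2 -1.53, SE 0.38, limma adjusted p = 0.00962) and was not called with TRMs (log2 -0.93, SE 0.38, limma adjusted p = 0.11). The iron importer Slc11a2 (DMT1) was not called, at 51.9 ± 9.78, 42.1 ± 4.55 and 44.9 ± 6.1 CPM, nor was Slc25a37 (mitoferrin), which takes iron into mitochondria, at 41.7 ± 0.795, 33 ± 5.24 and 30.2 ± 8.4 CPM.

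**Figure D3:**
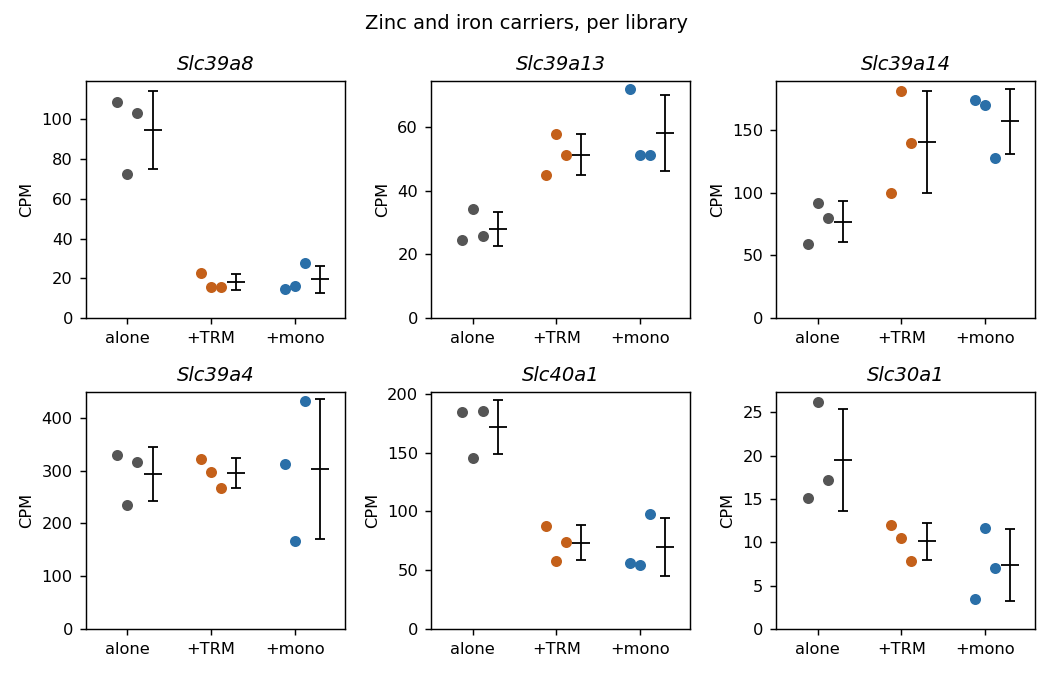
CPM of zinc and iron carriers in each library (points) with the mean and SD of each group (bars, n = 3). Slc39a8 and Slc40a1 are lower and Slc39a13 and Slc39a14 higher in the 6 co-culture libraries than in the 3 grown alone, while the values of Slc39a4 overlap.

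Of 5 monocarboxylate carriers, 3 rose and 1 fell with TRMs and 2 rose and 1 fell with monocytes. The count of rises was 1 without TRM replicate 2, TRM replicate 3, alone replicate 1 or alone replicate 3 for TRMs and 1 without alone replicate 1 or monocyte replicate 1 for monocytes, and the falls with monocytes numbered 2 without monocyte replicate 3. Slc16a1 (MCT1; ENSMUSG00000032902, chromosome 3, 104638668 to 104658462, GRCm38), which carries lactate and pyruvate with a proton, measured 187, 229 and 203 CPM alone, 309, 418 and 404 CPM with TRMs and 353, 424 and 364 CPM with monocytes. All co-culture libraries were higher, by 1.82-fold with TRMs (log2 0.86, SE 0.15, limma adjusted p = 0.00141) and 1.84-fold with monocytes (log2 0.88, SE 0.15, limma adjusted p = 0.000821). Slc16a12, which carries creatine, measured 57.2, 30.5 and 46.6 CPM alone, 8.17, 3.09 and 3.52 CPM with TRMs and 1.76, 4.0 and 12.3 CPM with monocytes. It fell 9.71-fold with TRMs (log2 -3.28, SE 0.57, limma adjusted p = 0.0015) and 9.79-fold with monocytes (log2 -3.29, SE 0.57, limma adjusted p = 0.000994). Slc16a12 stayed below the minimum with TRMs and so had to be lower there than alone, and that difference is a description. Its low levels made the fold uncertain: with monocytes it was 6.17-fold without monocyte replicate 1 and 16.4-fold without monocyte replicate 3. Slc16a9, a carnitine exporter, was called higher with TRMs (log2 1.60, limma adjusted p = 0.0355), a call lost in 4 of the 9 left-out fits (adjusted p up to 0.147) and in limma-voom (0.0573). With monocytes it was called higher as well (log2 1.80, limma adjusted p = 0.0147), a call lost without alone replicate 1 (0.064) or monocyte replicate 1 (0.0708), and 23.5% of its exon bases are shared with other genes. Slc16a9 reached the minimum only in the co-cultures and so had to be higher there. Its differences are a description, although they are counted among the rises. Slc16a6 (23.5% shared) was called higher with TRMs (log2 0.68, limma adjusted p = 0.0409), a call lost in 6 of the 9 left-out fits (adjusted p up to 0.158) and with scaling by library totals (0.0749). For comparison, the lactate exporter Slc16a3 and the glucose importer Slc2a1, which the selection left out, measured 3.91 ± 0.411, 80.8 ± 26.6 and 72.1 ± 25.8 CPM, and 175 ± 32.2, 595 ± 145 and 341 ± 34.9 CPM.

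Sugar carriers numbered 9, and 1 rose with TRMs and 2 rose and 2 fell with monocytes. All of these calls were in the Slc37 family, in which some members exchange sugar phosphates for phosphate at the endoplasmic reticulum. Slc37a4 (ENSMUSG00000032114, chromosome 9, 44396852 to 44402968, GRCm38), which delivers glucose-6-phosphate to the enzyme that releases glucose, measured 22.2, 15.6 and 22.7 CPM alone, 50.8, 52 and 47.5 CPM with TRMs and 39.8, 36 and 41.8 CPM with monocytes. The TRM libraries were the highest, the monocyte libraries came next and neither overlapped the spheroids grown alone. The rise was 2.52-fold with TRMs (log2 1.33, SE 0.18, limma adjusted p = 0.000234) and 1.97-fold with monocytes (log2 0.98, SE 0.18, limma adjusted p = 0.00138). Slc37a1 fell 1.9-fold with monocytes, at 41.6 to 55.8 CPM alone and 21.7 to 35.5 CPM with monocytes (log2 -0.92, SE 0.21, limma adjusted p = 0.00551). Slc37a3 also fell with monocytes (log2 -0.51, limma adjusted p = 0.0461), a call lost in 7 of the 9 left-out fits (adjusted p up to 0.206) and when fitted on the compared groups only (0.0744). Slc37a2, a member known for its high level in macrophages, measured 2.3, 2.33 and 1.16 CPM alone, 2.53, 3.62 and 4.38 CPM with TRMs and 6.68, 11.7 and 4.99 CPM with monocytes. It reached the minimum only with monocytes and so had to be higher there; the difference of 3.98-fold from the spheroids grown alone is a description, although it is 1 of the 2 rises counted. With TRMs it was not called (log2 0.90, SE 0.44, limma adjusted p = 0.183). Of the other carriers known in macrophages, Slc11a1 (NRAMP1), which is below the minimum here, stood at 0.0451 to 0.201 CPM alone, 0.0313 to 0.59 with TRMs and 0.778 to 1.97 with monocytes, with no call. With TRMs the class held falls in some left-out fits (1 without TRM replicate 1 or alone replicate 1 and 2 without alone replicate 2).

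Among 14 carriers of vitamins, choline and nucleosides, 1 rose and 2 fell in each co-culture, with medians of 0.26 and 0.10. Slc29a1 (ENT1; ENSMUSG00000023942, chromosome 17, 45585200 to 45599606, GRCm38), which lets adenosine and other nucleosides cross the plasma membrane, measured 71.9, 101 and 76.4 CPM alone, 124, 168 and 161 CPM with TRMs and 287, 258 and 215 CPM with monocytes. The 3 groups did not overlap, with monocyte libraries highest. It rose 1.82-fold with TRMs (log2 0.86, SE 0.17, limma adjusted p = 0.00373) and 3.06-fold with monocytes (log2 1.61, SE 0.17, limma adjusted p = 3.84e-05), and the difference between the co-cultures did not pass the test (log2 -0.75, SE 0.17, limma adjusted p = 0.078). The choline-like carriers Slc44a3 and Slc44a4 fell with monocytes, Slc44a3 at 108 to 137 CPM alone and 45.6 to 72.7 CPM with monocytes (log2 -1.13, SE 0.19, limma adjusted p = 0.001) and Slc44a4 at 76.8 to 122 CPM alone and 34.3 to 70.1 CPM with monocytes (log2 -1.02, SE 0.25, limma adjusted p = 0.00855). With TRMs Slc44a3 fell (log2 -0.62, limma adjusted p = 0.0419), a call lost in 5 of the 9 left-out fits (adjusted p up to 0.16). Slc44a4 fell with TRMs as well (log2 -0.78, limma adjusted p = 0.046), a call lost in 5 of the 9 left-out fits (adjusted p up to 0.171). The class count of 2 falls was 0 without TRM replicate 2, TRM replicate 3, alone replicate 1 or alone replicate 3 and 1 without alone replicate 2 or monocyte replicate 1. Slc44a1 and Slc44a2, the ubiquitous choline carriers, were not called. Slc44a1 stood at 172 ± 7.13, 222 ± 48.8 and 211 ± 46 CPM and Slc44a2 at 342 ± 37.4, 405 ± 60.7 and 421 ± 63.7 CPM. The folate carrier Slc19a1 measured 22.2 ± 6.05, 19.8 ± 2.74 and 20.5 ± 2.7 CPM without a call. The count of 1 rise became 2 without alone replicate 2 for TRMs and 2 without monocyte replicate 3 for monocytes.

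The Slc25 family was the largest class, with 38 genes, of which 1 rose and 6 fell in each co-culture and 31 did not pass. Its median log2 fold changes were -0.14 with TRMs and -0.08 with monocytes. Slc25a4 (ANT1), which exchanges ADP for ATP across the inner membrane, measured 172, 188 and 209 CPM alone, 246, 277 and 289.5 CPM with TRMs and 374, 356 and 347 CPM with monocytes. The groups did not overlap. The rise was 1.9-fold with monocytes (log2 0.92, SE 0.13, limma adjusted p = 0.000198) and 1.43-fold with TRMs (log2 0.51, SE 0.13, limma adjusted p = 0.012), where it was not called without TRM replicate 2 (0.055), TRM replicate 3 (0.0536) or alone replicate 1 (0.0671). How reads shared with the near-identical Slc25a5 and its pseudogenes were counted is not given in the sources used here, so these values are uncertain; Slc25a5 itself was not called, at 149.9 ± 29.3, 163 ± 19.95 and 191 ± 28.2 CPM. Slc25a36, which brings pyrimidine nucleotides into mitochondria, measured 135, 115 and 135 CPM alone, 51.7, 58.7 and 72 CPM with TRMs and 46.1, 58 and 60.4 CPM with monocytes. It fell 2.12-fold with TRMs (log2 -1.09, SE 0.16, limma adjusted p = 0.000572) and 2.35-fold with monocytes (log2 -1.23, SE 0.16, limma adjusted p = 0.000167). Slc25a32, a carrier of folate and FAD, fell 1.79-fold with TRMs, at 21.1 to 25.9 CPM alone and 12.3 to 14.1 CPM with TRMs (log2 -0.84, SE 0.18, limma adjusted p = 0.00665). Slc25a23, an ATP-Mg/phosphate carrier, fell 1.92-fold with monocytes, at 26.3 to 39 CPM alone and 16.6 to 17.8 CPM with monocytes (log2 -0.94, SE 0.20, limma adjusted p = 0.00396). Slc25a35, a carrier of unassigned cargo, measured 10.4, 11.9 and 10.1 CPM alone, 3.41, 1.8 and 2.26 CPM with TRMs and 3.49, 2.45 and 10.1 CPM with monocytes. It fell 4.48-fold with TRMs (log2 -2.16, SE 0.47, limma adjusted p = 0.00585); monocyte replicate 3 was at the level of the spheroids grown alone, and 31.3% of its exon bases overlap Rangrf on the other strand. Slc25a35 stayed below the minimum with TRMs and so had to be lower there than alone, and that difference is a description.

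Carriers of phosphate, citrate, oxoglutarate and aspartate (Slc25a3, Slc25a1, Slc25a11 and Slc25a13) were not called in either co-culture. The phosphate carrier Slc25a3 stood at 187 ± 13.7, 198 ± 15.8 and 214 ± 15.2 CPM. The citrate exporter Slc25a1 stood at 98.5 ± 7.92, 136 ± 15.6 and 116 ± 18.4 CPM, and the oxoglutarate carrier Slc25a11 at 70.2 ± 4.49, 84.4 ± 6.07 and 87.3 ± 11.3 CPM. Slc25a13 (citrin), which exports aspartate, measured 51 ± 6.41, 51.5 ± 3.51 and 51.8 ± 8.16 CPM. The 95% intervals of the log2 difference were -0.19 to 0.35 with TRMs and -0.08 to 0.46 with monocytes for Slc25a3, and 0.13 to 0.78 and -0.10 to 0.55 for Slc25a1, whose unadjusted interval with TRMs thus lay above 0. Within the family the count of falls with TRMs was 3 without TRM replicate 2, alone replicate 1 or alone replicate 3 and with monocytes 2 without alone replicate 3 and 3 without monocyte replicate 1 or monocyte replicate 2. The other falls of the family were each lost in some left-out fits. Slc25a42, a coenzyme A carrier, was called lower with TRMs (log2 -0.96, limma adjusted p = 0.0491), a call lost in 6 of the 9 left-out fits (adjusted p up to 0.157) and in edgeR (0.0531). With monocytes Slc25a42 was called as well (log2 -0.97, limma adjusted p = 0.0356), a call lost in 6 of the 9 left-out fits (adjusted p up to 0.136) and in edgeR (0.0641) and when fitted on the compared groups only (0.0623). Slc25a17, a peroxisomal carrier, was called with TRMs (log2 -1.04, limma adjusted p = 0.0156), a call lost without TRM replicate 2 (0.0726), alone replicate 1 (0.0735) or alone replicate 3 (0.0621), and with monocytes (log2 -0.90, limma adjusted p = 0.0227), a call lost in 4 of the 9 left-out fits (adjusted p up to 0.106). Slc25a25, an ATP-Mg/phosphate carrier, was called with TRMs (log2 -0.66, limma adjusted p = 0.0458), a call lost in 6 of the 9 left-out fits (adjusted p up to 0.203), and with monocytes (log2 -0.77, limma adjusted p = 0.016), a call lost without alone replicate 3 (0.0856) or monocyte replicate 1 (0.0623). Slc25a29, a carrier of basic amino acids, was called with monocytes (log2 -0.84, limma adjusted p = 0.0436), a call lost in 8 of the 9 left-out fits (adjusted p up to 0.146) and in edgeR (0.0527), when fitted on the compared groups only (0.0763) and with the replicate block (0.0515). The count of 1 rise was 0 without TRM replicate 2, TRM replicate 3 or alone replicate 1 and 2 without monocyte replicate 1, monocyte replicate 2 or monocyte replicate 3 for TRMs and 2 without alone replicate 2 for monocytes.

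**Figure D4:**
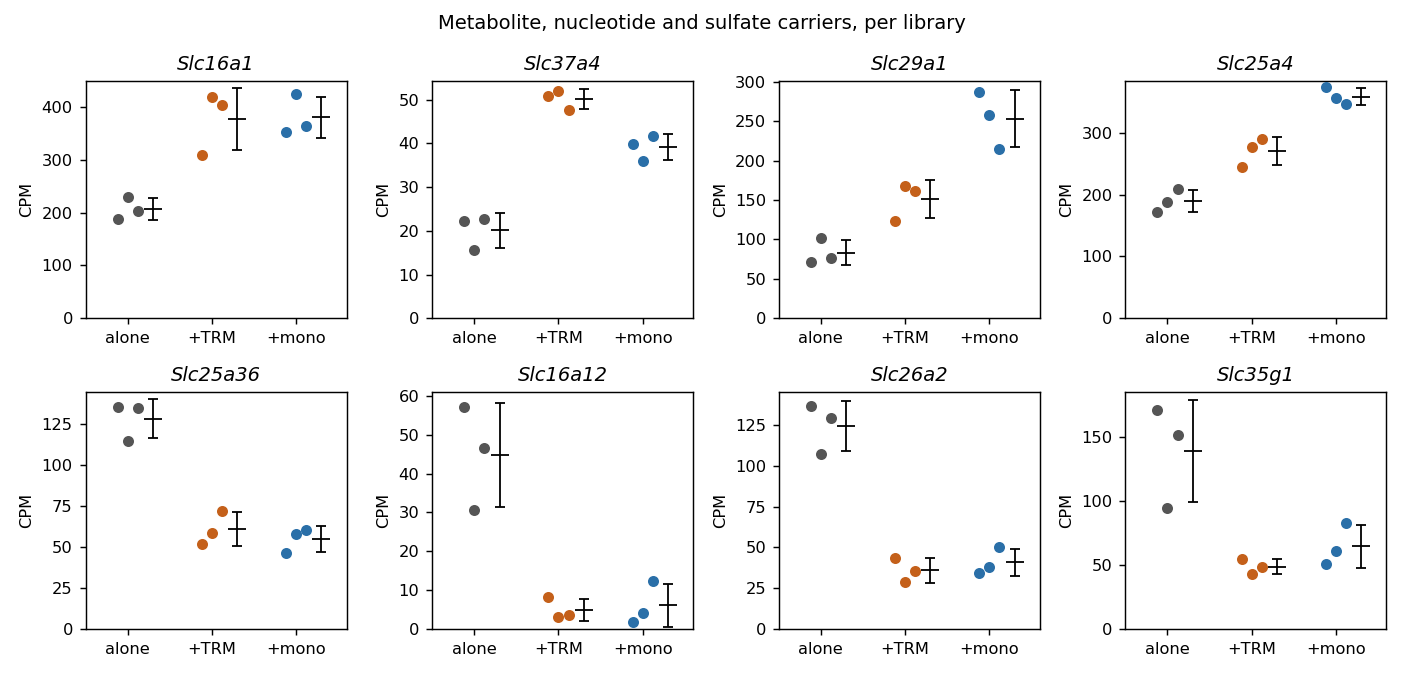
CPM of carriers of lactate, sugar phosphate, nucleosides, mitochondrial nucleotides, creatine, sulfate and of Slc35g1 in each library (points) with the mean and SD of each group (bars, n = 3). Slc16a1, Slc37a4, Slc29a1 and Slc25a4 are higher and Slc25a36, Slc16a12, Slc26a2 and Slc35g1 lower in all 6 co-culture libraries than in the 3 grown alone.

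Amino acid carriers numbered 17. With TRMs 1 rose and 3 fell, with monocytes 2 rose and 5 fell, and none of these calls was made in every left-out fit. The medians were -0.33 and -0.28. Among the libraries grown alone, replicate 2 was the highest for Slc38a2, Slc3a2, Slc7a5, Slc1a5 and Slc38a1. Slc38a2 (SNAT2), which takes up glutamine with sodium, measured 819, 1757 and 1089 CPM alone, 528, 924 and 782 CPM with TRMs and 649, 843 and 714 CPM with monocytes. Its groups overlapped and it was not called with TRMs (log2 -0.68, SE 0.25, limma adjusted p = 0.0831) or with monocytes (log2 -0.67, SE 0.25, limma adjusted p = 0.0683). Slc3a2 measured 248, 578 and 254 CPM alone, 306, 401 and 312 CPM with TRMs and 368, 395 and 269 CPM with monocytes. Its partner Slc7a5 (LAT1), which exchanges glutamine for leucine, measured 125, 325 and 112 CPM alone, 142, 204 and 151 CPM with TRMs and 211, 216 and 165 CPM with monocytes. Neither was called: limma adjusted p was 0.968 and 0.944 for Slc3a2 and 0.971 and 0.604 for Slc7a5, with TRMs and monocytes in that order. Slc1a5 (ASCT2), a glutamine exchanger, measured 44.7, 86.2 and 45.8 CPM alone, 28.6, 32.8 and 25.6 CPM with TRMs and 67.8, 54.7 and 48.6 CPM with monocytes. It fell 1.94-fold with TRMs (log2 -0.96, SE 0.24, limma adjusted p = 0.0123), a call lost without TRM replicate 3 (0.0507), and with monocytes it overlapped the spheroids grown alone (log2 0.01, SE 0.24, limma adjusted p = 0.982). Slc38a1 (SNAT1) measured 34.1, 69 and 38.6 CPM alone, 17.4, 27.2 and 24.5 CPM with TRMs and 46.8, 26.7 and 28.7 CPM with monocytes. Its fall of 1.98-fold with TRMs (log2 -0.99, SE 0.28, limma adjusted p = 0.0276) was lost without TRM replicate 1 (0.101), TRM replicate 3 (0.0553) or alone replicate 2 (0.104). The falls of the class were 0 without TRM replicate 3 and 1 without alone replicate 2 for TRMs and 0 without monocyte replicate 1, 2 without alone replicate 1, alone replicate 3, monocyte replicate 2 or monocyte replicate 3 and 3 without alone replicate 2 for monocytes. The rise of Slc38a10, an amino acid carrier relative of the endoplasmic reticulum and Golgi, was called with TRMs (log2 0.53, limma adjusted p = 0.0428), a call lost in 7 of the 9 left-out fits (adjusted p up to 0.169) and in edgeR (0.0505) and with scaling by library totals (0.0803). With monocytes Slc38a10 rose too (log2 0.59, limma adjusted p = 0.019), a call lost without alone replicate 2 (0.0699), monocyte replicate 1 (0.0714) or monocyte replicate 2 (0.0504). Slc7a6, a light chain that pairs with Slc3a2, also rose with monocytes (log2 0.60, limma adjusted p = 0.0123), a call lost without alone replicate 1 (0.061) or alone replicate 3 (0.0504). The third fall with TRMs was Slc6a9, a glycine importer (log2 -0.78, limma adjusted p = 0.0274), a call lost in 4 of the 9 left-out fits (adjusted p up to 0.116); 30.2% of its exon bases are shared with other genes. With monocytes 5 carriers were called lower. Slc6a9 was called (log2 -0.69, limma adjusted p = 0.0345), a call lost in 5 of the 9 left-out fits (adjusted p up to 0.131). Slc38a9, a lysosomal arginine sensor, was called (log2 -1.11, limma adjusted p = 0.0218), a call lost without alone replicate 3 (0.097) or monocyte replicate 1 (0.0719). Slc38a9 stayed below the minimum with monocytes and so had to be lower there than alone, and that difference is a description. Slc1a4 (ASCT1), an exchanger of neutral amino acids, was called (log2 -0.75, limma adjusted p = 0.0302), a call lost in 5 of the 9 left-out fits (adjusted p up to 0.121). Slc7a4 was called (log2 -0.82, limma adjusted p = 0.027), a call lost in 4 of the 9 left-out fits (adjusted p up to 0.117). Slc16a10 (TAT1), an aromatic amino acid carrier, was the fifth, but it reached the minimum only in spheroids grown alone and so had to be lower in co-culture. The cystine importer Slc7a11, left out by the selection, measured 199 ± 204 CPM alone, 77.1 ± 48.5 with TRMs and 81 ± 41.4 with monocytes.

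The Slc35 family held 20 genes, which supply the Golgi and endoplasmic reticulum with nucleotide sugars or have no assigned cargo. With TRMs 1 rose and 3 fell, and with monocytes 4 rose and 4 fell. Slc35f5 measured 259, 238 and 225 CPM alone, 150.2, 125 and 131 CPM with TRMs and 96, 98.6 and 146 CPM with monocytes. It fell 1.78-fold with TRMs (log2 -0.83, SE 0.16, limma adjusted p = 0.00338) and 2.16-fold with monocytes (log2 -1.11, SE 0.16, limma adjusted p = 0.000334), below every library grown alone. Slc35g1 measured 170.4, 94.5 and 151 CPM alone, 54.7, 43.1 and 48.1 CPM with TRMs and 50.2, 60.4 and 82.9 CPM with monocytes. It fell 2.78-fold with TRMs (log2 -1.47, SE 0.23, limma adjusted p = 0.000635) and 2.13-fold with monocytes (log2 -1.09, SE 0.23, limma adjusted p = 0.00318). Slc35a4 rose 1.65-fold with monocytes, at 101 to 109.7 CPM alone and 153 to 219 CPM with monocytes (log2 0.72, SE 0.15, limma adjusted p = 0.00285). Of the carriers with well established cargo, Slc35a1 (CMP-sialic acid) stood at 35.5 ± 5.22, 34 ± 2.12 and 35.1 ± 5.82 CPM and Slc35a2 (UDP-galactose) at 34 ± 1.38, 33.5 ± 2.55 and 38.5 ± 8.79 CPM, with no call. The falls with TRMs were 5 without monocyte replicate 1 and those with monocytes 2 without alone replicate 2, alone replicate 3 or monocyte replicate 1. The rise with TRMs was that of Slc35e4 (log2 0.62, limma adjusted p = 0.0154), a call lost without TRM replicate 1 (0.0545), TRM replicate 2 (0.0579) or alone replicate 3 (0.073). The other rises with monocytes, a count of 4 with Slc35a4 that was 2 without alone replicate 3, monocyte replicate 1 or monocyte replicate 2, were each lost in some left-out fits. Slc35b1, which carries ATP into the endoplasmic reticulum, was called (log2 0.55, limma adjusted p = 0.0333), a call lost in 4 of the 9 left-out fits (adjusted p up to 0.158) and with scaling by library totals (0.0513) and when fitted on the compared groups only (0.0636). Slc35b4, a UDP-xylose and UDP-N-acetylglucosamine carrier, was called (log2 0.63, limma adjusted p = 0.0145), a call lost without monocyte replicate 1 (0.0558). Slc35f6 was called (log2 0.50, limma adjusted p = 0.0172), a call lost without alone replicate 3 (0.0691), monocyte replicate 1 (0.0545) or monocyte replicate 2 (0.0514). Slc35a3, a UDP-N-acetylglucosamine carrier, was the third fall with TRMs (log2 -0.59, limma adjusted p = 0.0485), a call lost in 7 of the 9 left-out fits (adjusted p up to 0.144). With monocytes Slc35a3 was called lower too (log2 -0.56, limma adjusted p = 0.0447), a call lost in 5 of the 9 left-out fits (adjusted p up to 0.16) and in edgeR (0.0533) and when fitted on the compared groups only (0.0664), and Slc35e2 was the fourth fall (log2 -0.60, limma adjusted p = 0.0251), a call lost without alone replicate 2 (0.0755), alone replicate 3 (0.0931) or monocyte replicate 1 (0.0739).

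Of 14 carriers of organic ions, drugs and peptides, 1 rose and 6 fell with TRMs and 1 rose and 7 fell with monocytes. In each comparison 4 of the falls are genes that reached the minimum only in spheroids grown alone and so had to be lower in co-culture, and their values are given as a description. The class had medians of -0.39 and -0.51. Slc22a23, an orphan of the organic ion family and the one with the highest CPM among those that fell, measured 240.3, 317 and 262 CPM alone, 116, 193 and 166 CPM with TRMs and 142, 152 and 141 CPM with monocytes. It fell 1.75-fold with TRMs (log2 -0.81, SE 0.18, limma adjusted p = 0.00635) and 1.87-fold with monocytes (log2 -0.90, SE 0.18, limma adjusted p = 0.0022). Slc10a2 (ASBT), the sodium-coupled bile acid importer of the ileum, measured 8.05, 11.4 and 7.59 CPM alone, 2.53, 0.678 and 0.55 CPM with TRMs and 0.838, 2.83 and 0.189 CPM with monocytes. It is 1 of these 4 genes, at 11.6-fold lower with monocytes, or 7.2-fold in DESeq2, 7.05-fold in edgeR, 4.87-fold with log2(value + 1), 22.3-fold without monocyte replicate 2 and 5.76-fold without monocyte replicate 3, and 9.03-fold lower with TRMs, or 4.72-fold with log2(value + 1) and 14.5-fold without TRM replicate 1. Slc10a5, an orphan of the bile acid family and another of the 4, stood at 3.37 to 8.07 CPM alone, 1.56 to 1.93 CPM with TRMs and 0.892 to 1.65 CPM with monocytes. Slc22a21, a carnitine carrier and likewise 1 of the 4, stood at 5.5 to 6.38 CPM alone, 0.972 to 1.91 CPM with TRMs and 1.24 to 2.29 CPM with monocytes; it shares sequence with its neighbours Slc22a4 and Slc22a5, among which the counting could split reads. Slc22a18, a carrier encoded in an imprinted region, fell 2.06-fold with monocytes, at 20.4 to 25.9 CPM alone and 8.9 to 14.8 CPM with monocytes (log2 -1.04, SE 0.25, limma adjusted p = 0.00725). The count of falls was 2 without TRM replicate 2, TRM replicate 3, alone replicate 1 or alone replicate 3 for TRMs and 4 without alone replicate 3 for monocytes. The rise with TRMs was that of Slc10a7 (log2 0.57, limma adjusted p = 0.0461), a call lost in 6 of the 9 left-out fits (adjusted p up to 0.142) and with scaling by library totals (0.0855) and with the replicate block (0.0513). The rise with monocytes was that of Slc22a15 (log2 0.50, limma adjusted p = 0.0426), a call lost in 7 of the 9 left-out fits (adjusted p up to 0.139) and with scaling by library totals (0.067), when fitted on the compared groups only (0.0798) and with the replicate block (0.0504).

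The phosphate and sulfate class held 4 genes, of which 2 fell with TRMs and 3 with monocytes, the same counts in each left-out fit, and none rose. In each comparison 1 of these falls is that of Slc17a4, which reached the minimum only in spheroids grown alone and so had to be lower in co-culture. Slc26a2, which imports the sulfate used for proteoglycans, measured 137, 107 and 129 CPM alone, 43.6, 28.6 and 35.4 CPM with TRMs and 34, 38.1 and 50.3 CPM with monocytes. It fell 3.51-fold with TRMs (log2 -1.81, SE 0.19, limma adjusted p = 4.63e-05) and 3.08-fold with monocytes (log2 -1.62, SE 0.19, limma adjusted p = 7.15e-05), with no overlap. Slc17a4, an organic anion and phosphate carrier of the gut, measured 9.44, 6.23 and 8.91 CPM alone, 1.47, 0.56 and 0.713 CPM with TRMs and 0.459, 0.565 and 1.62 CPM with monocytes. As a description, it was 9.63-fold lower with TRMs, or 4.84-fold with log2(value + 1), and 10.8-fold lower with monocytes, or 5.0-fold with log2(value + 1). Slc20a1, the sodium-phosphate importer PiT1 (13.1% of exon bases shared with other genes), fell 1.92-fold with monocytes, at 90.2 to 136 CPM alone and 49.8 to 68 CPM with monocytes (log2 -0.94, SE 0.20, limma adjusted p = 0.00335), and was not called with TRMs (log2 -0.52, SE 0.20, limma adjusted p = 0.0851).

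Among 3 carriers of lipids and acetyl-CoA, Slc27a4 (FATP4), which activates and takes up long-chain fatty acids, measured 71.5, 51 and 63.9 CPM alone, 133, 108 and 88.8 CPM with TRMs and 76, 51.7 and 73.6 CPM with monocytes. It rose 1.77-fold with TRMs (log2 0.82, SE 0.20, limma adjusted p = 0.0108) and overlapped the spheroids grown alone with monocytes (log2 0.10, SE 0.20, limma adjusted p = 0.734). Slc27a1 (FATP1) was not called, at 103 ± 14.4, 109 ± 13.8 and 109.7 ± 10.4 CPM. Of the 4 genes that encode no transporter, Slc9a3r2 fell with TRMs (log2 -0.90, SE 0.29, limma adjusted p = 0.0449), a call lost without TRM replicate 2 (0.127), TRM replicate 3 (0.171), alone replicate 1 (0.18) or alone replicate 3 (0.105). Slc9a3r1 (EBP50), which ties exchangers to the cytoskeleton, stood at 121 ± 22.9, 126 ± 18.9 and 114 ± 22.9 CPM with no call. Of the 3 genes that were put in no class, Slc49a4 was not called and Slc17a5, a lysosomal sialic acid exporter, fell with monocytes (log2 -0.69, limma adjusted p = 0.0295), a call lost in 4 of the 9 left-out fits (adjusted p up to 0.101) and when fitted on the compared groups only (0.0574).

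Between the co-cultures 1 of the 177 carriers was called, Slc4a4, higher with TRMs than with monocytes by 1.66-fold (log2 0.73, SE 0.13, limma adjusted p = 0.0331). The background was 0.325% of all genes higher with TRMs, 0.073% lower and 0.398% in either direction. Slc4a4 was on the preset list of carriers, which was chosen with earlier results of these data known. It is described here as the single call, after its values were seen. The 3 TRM libraries, at 206 to 237 CPM, lay above the 3 monocyte libraries, at 123 to 147 CPM, and below those grown alone. The call was lost without TRM replicate 1 (0.115), TRM replicate 2 (0.0991), TRM replicate 3 (0.129), alone replicate 1 (0.0549), alone replicate 3 (0.0529), monocyte replicate 1 (0.0701) or monocyte replicate 2 (0.134) and when fitted on the compared groups only (0.0521). At an unadjusted p under 0.05, 22 of the 177 carriers differed between the co-cultures, against 1437 of 12326 genes, and DESeq2 called 3 carriers higher and 2 lower with TRMs. The 95% intervals of the log2 difference between the co-cultures were -0.13 to 0.45 for Slc12a2, -0.61 to 0.48 for Slc39a8, -0.34 to 0.30 for Slc16a1 and -0.60 to 0.23 for Slc26a2.

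**Figure D5:**
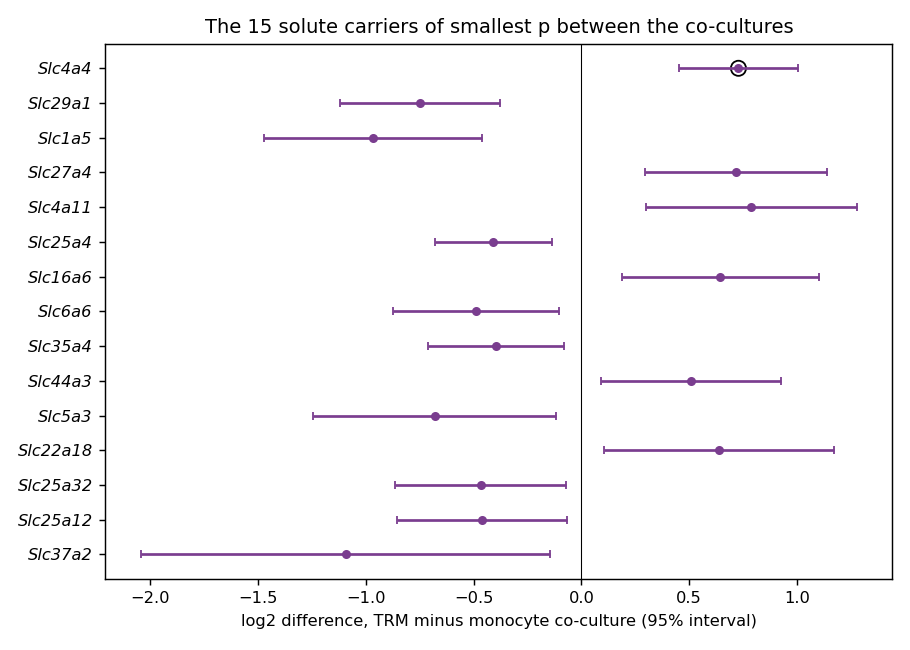
Log2 difference between TRM and monocyte co-cultures (TRM minus monocyte, points) with its 95% interval (bars) for the 15 carriers with the smallest p. Slc4a4, at 0.73, is the single carrier called at an adjusted p under 0.05, and the others did not pass the test.

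Carriers of the same superfamily that bear other symbols were counted from a list of 49 genes tested. With TRMs 5 rose and 4 fell, and with monocytes 9 rose and 5 fell, with median log2 fold changes of 0.02 and -0.06. Among all genes tested, 10.2% were called higher and 8.15% lower with TRMs, and 14.7% and 12.7% with monocytes. Slco2a1, the prostaglandin importer, measured 16.5, 11.6 and 13.1 CPM alone, 53.5, 57.2 and 46.4 CPM with TRMs and 78, 69.2 and 41.5 CPM with monocytes. It rose 3.84-fold with TRMs (log2 1.94, SE 0.23, limma adjusted p = 0.000104) and 4.47-fold with monocytes (log2 2.16, SE 0.23, limma adjusted p = 3.61e-05), with no overlap. Slco4a1 fell 2.29-fold with TRMs, at 192 to 326 CPM alone and 106 to 133 CPM with TRMs (log2 -1.19, SE 0.23, limma adjusted p = 0.0027), and Spns2, the sphingosine-1-phosphate exporter, rose 1.86-fold with TRMs, at 231 to 263 CPM alone and 414 to 483 CPM with TRMs (log2 0.90, SE 0.13, limma adjusted p = 0.000357). The counts with TRMs were 3 without TRM replicate 2 or alone replicate 1 for rises and 2 without TRM replicate 1, TRM replicate 2, TRM replicate 3 or alone replicate 3 for falls. With monocytes they were 4 without alone replicate 1 and 5 without monocyte replicate 1 for rises and 2 without alone replicate 1 and 3 without TRM replicate 2, alone replicate 3 or monocyte replicate 2 for falls. Of 4 partner proteins that bring carriers to the cell surface, 2 rose and 1 fell with TRMs, and 1 rose and 1 fell with monocytes. Their median log2 fold changes were -0.00 and -0.32. The rises with TRMs were 1 without TRM replicate 2, TRM replicate 3, alone replicate 1 or alone replicate 3. With monocytes the rises were 2 without monocyte replicate 1. Bsg (basigin), the chaperone of the lactate carriers, measured 695, 601 and 664 CPM alone, 1481, 1696 and 1827 CPM with TRMs and 733, 860.3 and 1346 CPM with monocytes. It rose 2.55-fold with TRMs (log2 1.35, SE 0.19, limma adjusted p = 0.000437) and was not called with monocytes (log2 0.54, SE 0.19, limma adjusted p = 0.0556).

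Carriers that moved in the same direction were set beside the sequence at their gene starts. Promoter windows of 250 bases before to 50 bases after a start came from RefSeq (GRCm38.p6), which matched 132 of the 177 carriers. The letters CACGTG, the E-box bound by factors such as MYC, USF and TFEB, were sought on both strands; they contain ACGTG, the core of the hypoxia element, so a gene with the first also has the second. CACGTG stood in the windows of 18.9% of the matched carriers and 11.4% of the 9765 tested genes that matched. It was in 20.0% of the 10 matched carriers that rose in both co-cultures, in 20.0% of the 15 that fell in both and in 22% of the 82 called in neither. The 5 matches among carriers called in both co-cultures are shown, 2 in genes that rose (Slc16a1 and Slc29a1) and 3 in genes that fell (Slc39a8, Slc25a36 and Slc16a12), to show the same letters beside opposite changes. Each is written 5′ to 3′ on the strand of its gene, with CACGTG in capitals.
Slc16a1 (chr3:104638452-104638482, plus strand): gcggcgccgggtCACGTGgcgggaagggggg
Slc29a1 (chr17:45595303-45595333, minus strand): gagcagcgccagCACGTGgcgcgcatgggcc
Slc39a8 (chr3:135825574-135825604, plus strand): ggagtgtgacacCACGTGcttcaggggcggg
Slc25a36 (chr9:97111210-97111240, minus strand): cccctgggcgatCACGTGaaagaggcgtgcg
Slc16a12 (chr19:34747550-34747578, minus strand): ttgcaagatgCACGTGcaggagactttgt
The hypoxia core, ACGTG or GCGTG on either strand, was in the windows of 72.0% of the matched carriers and 67.3% of the matched tested genes. Its share was 70.0% in the carriers that rose in both co-cultures, 66.7% in those that fell in both and 75.6% in those called in neither. The antioxidant core TGACNNNGC was in 25.8% of carriers and 17% of tested genes, and the ATF4 composite TGATGNAA in 2.27% and 2.85%. These matches are letters in a window and show no binding.

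All 177 carriers are in the authors' deposited tables of comparisons. At a false discovery rate under 0.05, the authors' deposited table called 19 carriers higher and 38 lower with TRMs, of which 16 and 28 were also called with limma. For monocytes the authors' deposited table called 21 higher and 34 lower, of which 20 and 32 were shared. Some carriers given above as not called by limma were called there. Slc38a2 was called lower with TRMs (false discovery rate 0.0287) and with monocytes (0.0129). With TRMs Slc25a1 was called higher (0.0235), and Slc30a1 (0.0117) and Slc20a1 (0.0304) lower. Conversely, limma's calls of Slc10a7 with TRMs (0.062) and Slc4a8 with monocytes (0.123) were not made there. No carrier was called in opposite directions by the authors' deposited tables and by limma.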

How the data were processed

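RNA of sorted GFP-positive tumour cells was sequenced in 9 libraries, 3 per group, grouped by the sample labels. Per the submitters' processing notes, STAR 2.5 and edgeR were used with mm10; which program counted reads, and on which annotation, is not given in the sources used here. Deposited values are a signal in CPM on TMM-scaled library sizes with 0.5 read added by the authors; every value (100%, tolerance 1e-06 of a read) gave whole reads, and these recovered read counts were used for edgeR, DESeq2 and limma-voom as alternatives. The authors' deposited tables hold log2 fold changes, a likelihood ratio score, p-values and false discovery rates, per the file headers.

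R 4.3.3, limma 3.58.1, edgeR 4.0.16, DESeq2 1.42.0 and Python 3.11.15 were used. After edgeR's filterByExpr (minimum count 10, minimum total 15) 12326 of 12339 genes were tested with limma on log2 values, with the variance prior following the mean, over all 9 libraries (6 residual degrees of freedom), two-sided, with Benjamini-Hochberg adjustment. All 177 carriers passed this filter. Fold changes include the added 0.5 read and understate changes of low genes. With 16001895 to 32771448 reads per library, 1 read is worth 0.0300 to 0.0626 CPM. The fitting script was tested on simulated data. Gene lengths, positions and exon overlaps are from GENCODE M21 (GRCm38), which matched 176 of 177 carriers. Nothing states that the kit keeps strand.

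Carriers named are those called in all 9 left-out fits without overlap of groups (6 largest folds and 6 smallest p per comparison and direction), the 3 highest per kb of a class and a preset list; further carriers were named after their values were seen. Results for some genes are not reported here. The carriers, classes and lists were chosen with earlier results of these data known. Alternatives tried were other tests, scaling by library totals, log2(value + 1), other filters, only the groups compared, a replicate block, each library left out and other choices of members.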

Additional observations from a re-analysis of the deposited data

Results flagged for a closer look

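The difference between the effects of the co-cultures passed the test for 1 carrier, Slc4a4, whose log2 fold change against spheroids grown alone was -0.29 with TRMs and -1.02 with monocytes, a difference of 0.73 (limma adjusted p = 0.0331). All 3 TRM libraries lay above all 3 monocyte libraries. The call was lost in most of the fits that left out 1 library and when fitted on the compared groups only, with the values given above. Groups of 3 libraries were not searched for outlying samples.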

How the results depend on the processing

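Over the single carriers named and their 3 comparisons, 5239 values under the alternatives kept their call or stayed without one. A further 80 passed the threshold newly and 240 no longer passed it, and the cause was not tested. No value called in the main fit reversed its sign, while the sign of values without a call was not compared. Leaving out 1 library gave 8 to 19 rises and 15 to 31 falls with TRMs, 13 to 25 rises and 24 to 37 falls with monocytes, and 0 to 2 carriers higher and 0 to 1 lower between the co-cultures. DESeq2 called 3 carriers higher and 2 lower between the co-cultures, where limma called 1 and 0. With the replicate block 18 carriers rose and 32 fell with TRMs, 23 rose and 38 fell with monocytes, and 1 was higher with TRMs than with monocytes. Same-numbered libraries correlated at -0.0246 to 0.429 in their deviations from the group means, and differently numbered ones at -0.401 to 0.265. Most same-numbered pairs lay above 0 and most other pairs below 0. Not every library correlated best with its own number (alone replicate 2 and TRM replicate 3 reached 0.265). The main fit took no pairs because the labels do not say that equal numbers share a day or culture. Whether they do was not tested. Groups of 3 libraries limit which small differences pass. Carriers near 1 CPM have folds that move with the constant added before the logarithm.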

Other observations

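Primary pumps, which use ATP to build the gradients that many solute carriers run on, were counted from a list of 16. With TRMs 1 rose and 3 fell and with monocytes 1 rose and 5 fell. The shares over all genes tested were 10.2% higher and 8.15% lower with TRMs, and 14.7% and 12.7% with monocytes. Atp1b1, the beta subunit of the sodium-potassium pump, measured 334, 202 and 324 CPM alone, 86.9, 42.5 and 44.1 CPM with TRMs and 51.3, 65.9 and 128 CPM with monocytes. It fell 5.12-fold with TRMs (log2 -2.36, SE 0.33, limma adjusted p = 0.000355) and 3.7-fold with monocytes (log2 -1.89, SE 0.33, limma adjusted p = 0.0011), with no overlap. Atp13a3, a polyamine pump, fell 1.67-fold with TRMs (log2 -0.74, SE 0.16, limma adjusted p = 0.00725) and 1.7-fold with monocytes (log2 -0.77, SE 0.16, limma adjusted p = 0.00396). The 1 rise with TRMs was 0 without TRM replicate 1, TRM replicate 2, TRM replicate 3, alone replicate 1 or alone replicate 3, and the 5 falls with monocytes were 3 without alone replicate 1 or monocyte replicate 2.

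ABC transporters, which use ATP to export lipids and drugs, numbered 29 tested. With TRMs 3 rose and 7 fell and with monocytes 4 rose and 10 fell. Of all genes tested, 10.2% were called higher and 8.15% lower with TRMs, and 14.7% and 12.7% with monocytes. Abcb1a, a drug efflux pump of the P-glycoprotein type, measured 12.3, 7.0 and 8.37 CPM alone, 39.5, 73.6 and 64.2 CPM with TRMs and 46.4, 30.5 and 28.4 CPM with monocytes. It rose 6.37-fold with TRMs (log2 2.67, SE 0.28, limma adjusted p = 4.14e-05) and 3.82-fold with monocytes (log2 1.93, SE 0.28, limma adjusted p = 0.000286). Abcc4, which exports cyclic nucleotides and prostaglandins, measured 162, 168 and 162 CPM alone, 71.3, 65.4 and 49.8 CPM with TRMs and 36.9, 61.1 and 92.9 CPM with monocytes. It fell 2.67-fold with TRMs (log2 -1.42, SE 0.26, limma adjusted p = 0.00197) and 2.77-fold with monocytes (log2 -1.47, SE 0.26, limma adjusted p = 0.00107). Abcc3 fell 1.76-fold with TRMs (log2 -0.82, SE 0.17, limma adjusted p = 0.00526) and 2.47-fold with monocytes (log2 -1.30, SE 0.17, limma adjusted p = 0.000163). Abcd4, which moves vitamin B12 out of lysosomes, rose 2.2-fold with TRMs (log2 1.13, SE 0.18, limma adjusted p = 0.000661) and 2.72-fold with monocytes (log2 1.44, SE 0.18, limma adjusted p = 8.47e-05). The falls with TRMs were 2 without TRM replicate 1 or alone replicate 3, 3 without TRM replicate 2 or TRM replicate 3 and 4 without alone replicate 1 and those with monocytes 5 without alone replicate 3. The rises with monocytes were 2 without alone replicate 1 or monocyte replicate 1.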
